A study of Rattus norvegicus with 12 samples.

Results

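Cytoplasmic ribosomal proteins were followed in rat hearts as a set of 50 probe sets for 44 genes, out of 31042 probe sets on the array and 14217 genes with a symbol of their own. A member was any probe set annotated to exactly 1 symbol made of Rpl or Rps and a number, with an optional short suffix, or to Rplp0, Rplp1, Rplp2 or Rpsa, and the Rps6k kinases were left out. The large subunit gave 30 of the genes and the small subunit 14. Rplp1 is listed only on a probe set that also carries other symbols, which is outside the rule, and Rplp2 is not analysed here. Messenger RNA was measured with 1 array of 1 colour per heart in 6 failing hearts and 6 control hearts, which the labels treat as biological replicates. The series follows heart failure in the Spontaneously Hypertensive Rat, an inbred line with high blood pressure whose enlarged heart later fails. The labels name neither age nor sex, nor the strain of the controls, and the captopril groups that the protocol mentions are not analysed here. No group is labelled as carrying a transgene or a deleted gene. The question is whether their messages differ between the failing and the control state.

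The cytoplasmic ribosome is built of a large and a small subunit, each made of ribosomal RNA and of proteins named Rpl and Rps. The messages of most of these proteins start with a run of pyrimidines, the 5′ terminal oligopyrimidine (TOP) tract, through which mTOR signalling controls their translation. Rpl3 is a core protein of the large subunit that reaches towards the peptidyl transferase centre, and Rpl3l is its paralogue of striated muscle, known from mouse and human to take the place of Rpl3 in ribosomes of heart and skeletal muscle.

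The start regions of several members are shown because a pyrimidine run at the start is common in the family, and so that Rpl3, Rpl3l and Rps27l can be set beside members that have a long run. RefSeq promoter sequences (build GRCr8) were matched by symbol for 39 of the 44 genes. Each of the following windows runs 5′ to 3′ from 20 bases before to 10 bases after the annotated start, and capitals mark the longest unbroken run of C or T in it.
Rpl3 (chr7:113507981-113508010, minus strand): ctgcaccagcgcctgctcgaTCTCTatcgg
Rpl3l (chr10:14258426-14258455, plus strand): catttgaCCTCTggtgcctggtggggaggt
Rpl35 (chr3:43165912-43165941, minus strand): ggccccgCCCCTTCCTCTTTCTCTCgaacc
Rpl4 (chr8:73566457-73566486, plus strand): agtgataagTTCTTCCTTTTCCTgtgggag
Rps23 (chr2:23814497-23814526, plus strand): ccttgtgggtccttcctgCCTCTCTTCTCT
Rps9 (chr1:74430428-74430457, minus strand): cgcgatccggcggccacgTTTCTCTTTgtc
Rplp0 (chr12:46718381-46718410, minus strand): ctggtgaccgcaccgcaCTTCTCTCgccag
Rps27l (chr8:76443638-76443667, plus strand): ttatagTTTattcatttgtcattatttgtg

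In these windows the run was 18 bases long in Rpl35, 14 in Rpl4, 12 in Rps23, 9 in Rps9 and 8 in Rplp0. It was 5 bases long in both Rpl3 and Rpl3l and 3 in Rps27l. The run of Rpl3 began at the annotated start, whereas that of Rpl3l ended before it. The longer runs all spanned the start. Over the wider stretch of 25 bases on either side of the start, a run of at least 8 pyrimidines on the sense strand was found in 29 of 39 member genes (74.4%), against 6485 of 33469 promoters in the whole table (19.4%). The median longest run there was 11 bases in the members and 5 bases in all promoters. On this stretch Rpl3 again had 5 and Rps27l 3, while Rpl3l had 9. Rps23, whose run reached the end of the shorter window, had 21. An annotated start need not be the one that the heart uses, and a match describes the letters only.

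The 250 bases before the start of Rpl3 and Rpl3l are given next, since these paralogues carry the main result. Capitals mark matches to CANNTG, the E-box that MyoD family factors bind, and to TATATA, searched on both strands with no overlap between the motifs in these sequences.
Rpl3 (chr7:113507991-113508240, minus strand): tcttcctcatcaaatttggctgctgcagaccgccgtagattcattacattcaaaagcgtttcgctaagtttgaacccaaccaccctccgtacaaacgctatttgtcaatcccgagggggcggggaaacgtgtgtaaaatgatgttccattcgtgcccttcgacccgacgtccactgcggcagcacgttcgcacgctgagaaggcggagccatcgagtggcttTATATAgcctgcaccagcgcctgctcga
Rpl3l (chr10:14258196-14258445, plus strand): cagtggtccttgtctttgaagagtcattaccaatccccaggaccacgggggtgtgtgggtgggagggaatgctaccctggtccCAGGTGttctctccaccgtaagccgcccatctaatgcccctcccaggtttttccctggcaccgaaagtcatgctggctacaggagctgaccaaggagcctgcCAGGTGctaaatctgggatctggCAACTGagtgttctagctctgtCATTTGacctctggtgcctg

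Rpl3l held 4 matches to CANNTG and Rpl3 held 0. That motif was present in 19 of 39 member promoters (48.7%) and in 65.5% of all 33469 promoters. TATATA was present in 3 member promoters (7.69%), those of Rpl3, Rpl4 and Rps3, and in 5.45% of all promoters. CCGGAAG, a core that ETS family factors bind, was present in 5 member promoters (12.8%), among them those of Rpl35 and Rpl41, and in 7.27% of all promoters.

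All arrays had been scaled to nearly the same trimmed mean intensity, between 500.19 and 500.23, so a shift of most transcripts in 1 direction would not show. The heart label was checked against 19 measured cardiomyocyte markers, all of which lay among the brighter probe sets and none at 0. Control heart 4 stood apart from the other controls. Its summed intensity over 14 measured lymphocyte and natural killer markers was 18235, against 755 to 1507 in the failing hearts and 974 to 1210 in the other control hearts. It also had the lowest cardiomyocyte marker sum of all hearts, and on the first principal component of the brighter probe sets it lay among the failing hearts, while failing heart 5 lay on the side of the controls. Values without control heart 4 are given beside the results that it moves most.

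Failing hearts had less of the Rpl3l message than control hearts, by a call that held among the brighter probe sets only. The mean of Rpl3 was higher in failing hearts by 1 of its probe sets, without passing the test, and most other ribosomal protein messages differed by little. In a limma fit to all 31042 probe sets with Benjamini-Hochberg adjustment, 0 probe sets passed an adjusted p of 0.05 (0%), 0 of the 50 members among them. At an unadjusted p under 0.05 there were 4495 probe sets (14.5%), and 3 of 50 members, Rpl3l, Rpl3 and Rpl35. Small linear intensities spread widely on the log2 scale, so the fit was also made to the 15521 brighter probe sets, those with a mean log2 intensity of at least 6.94 over the 12 arrays. There 659 probe sets passed (4.25%), 429 of them higher (2.76%) and 230 lower (1.48%) in failing hearts. Without 1 heart the number passing ran from 24 (without control heart 6) to 2078 (without control heart 4), and without control heart 4 higher and lower calls were about even, at 6.65% and 6.74% of the brighter probe sets. Of the 45 brighter members 0 were higher and 1 was lower, Rpl3l, a share close to the background. Without control heart 4 there were 2 member calls, Rpl3 higher and Rpl3l lower. Groups that did not overlap were found in 0 members, against 1.52% of all probe sets and 2.62% of the brighter ones.

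Rpl3l was measured by 1 probe set. Its log2 intensity in the failing hearts was lowest at 10.08 in heart 3, had a median of 11.31 and reached 12.18 in heart 5. In the control hearts it was lowest at 11.47 in heart 4, had a median of 12.46 and reached 12.88 in heart 1. All 6 failing hearts lay below the control median, and the groups overlapped through failing heart 5 and control heart 4. The means were 11.18 ± 0.71 in failing hearts and 12.39 ± 0.51 in control hearts (SD, n = 6 each), a log2 difference of -1.21 ± 0.31 (SE), or 0.434 times the control level. The adjusted p was 0.0482 among the brighter probe sets and 0.171 over all probe sets, both from limma. The call among the brighter probe sets was lost when any 1 of 10 of the 12 hearts was left out. It was kept without failing heart 5 or without control heart 4. Over all 12 of these fits the differences ran from -1.40 to -0.98 and the adjusted p from 0.0148 to 0.107. Without control heart 4 the difference was -1.39, with an adjusted p of 0.0165. The call was also lost with arrays centred on their medians (adjusted p = 0.0574) and with the intensity limit at the 25th percentile (adjusted p = 0.113). In tissue RNA, fewer cells of a type and less RNA per cell cannot be told apart.

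Rpl3 had 2 probe sets, of which the dimmer one was too variable to set against the other. The brighter one ranged in the failing hearts between 13.65 in heart 5 and 14.52 in heart 3, with a median of 14.10. In the control hearts it ranged between 13.14 in heart 6 and 14.49 in heart 4, with a median of 13.29. The groups overlapped only through control heart 4, which exceeded 5 of the 6 failing hearts. The means were 14.09 ± 0.29 in failing hearts and 13.48 ± 0.51 in control hearts (SD, n = 6 each), a log2 difference of 0.61 ± 0.22 (SE) with an adjusted p of 0.111 among the brighter probe sets by limma, which did not pass. Without control heart 4 the difference was 0.81 and passed, with an adjusted p of 0.0105. The dimmer probe set, of a type whose probes can match other transcripts, had a median of 9.25 in failing hearts and 8.88 in control hearts, and its difference was 0.01 with a 95% interval of -0.97 to 0.99, which includes the 0.61 of the brighter one. That value rests on failing heart 1, at 6.74 the lowest of all hearts, and without it the difference was 0.41 (adjusted p = 0.471).

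**Figure D1:**
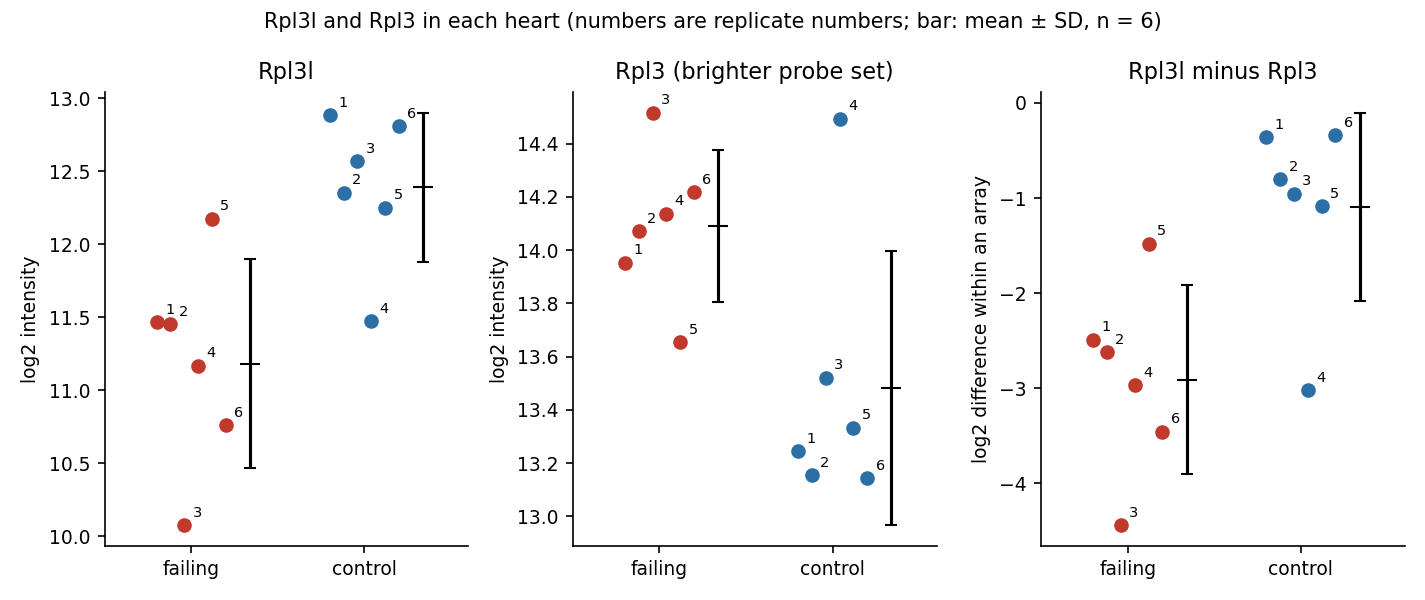
Log2 intensity of Rpl3l and Rpl3 (brighter probe set) and their difference within each heart, with 1 point for each of the 6 failing and 6 control hearts and the mean and SD of each group. The control heart that lies with the failing hearts is control heart 4, and the failing heart nearest the controls is failing heart 5.

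The balance of the paralogues was taken as the log2 intensity of Rpl3l minus that of the brighter Rpl3 probe set on the same array, in which the array's scaling cancels. Only its change between groups can be read, because the level depends on the probes. It ranged in the failing hearts between -4.44 in heart 3 and -1.48 in heart 5, with a median of -2.79, and in the control hearts between -3.02 in heart 4 and -0.34 in heart 6, with a median of -0.88. Every control heart but heart 4 lay above every failing heart. The means were -2.91 ± 0.99 in failing hearts and -1.09 ± 0.99 in control hearts (SD, n = 6 each), a difference of -1.81 ± 0.57 (SE). An exact two-sided permutation test over 924 arrangements gave p = 0.0173, where 0.00216 is the smallest p possible. Leaving out any 1 heart gave differences from -2.20 to -1.51 and exact p from 0.00433 to 0.0303, and the value farthest from 0, with the smallest p, was that without control heart 4.

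Across hearts the paralogues ran in opposite directions. Over all 12 hearts Pearson's r between Rpl3 and Rpl3l was -0.900 (permutation p = 0.0001) and Spearman's rho was -0.881 (permutation p = 0.00032), with adjusted p of 0.0006 and 0.00096 over the 6 relations computed. This pooled value includes the difference between the groups. Within the 6 failing hearts r was -0.983 and rho was -1, each with an exact p of 0.00278 (adjusted 0.00417). Within the 6 control hearts r was -0.869 (exact permutation p = 0.136) and rho was -0.6 (exact permutation p = 0.242), and neither passed. Without the pair farthest from the median of Rpl3, r was -0.935 over the other 10 hearts. Without each group's own such pair, r was -0.890 over 4 failing hearts and -0.384 over 4 control hearts, hearts 3 and 4 left out. Leaving out control heart 4 alone, a choice made after the data were seen, gave r = -0.952 over 11 hearts (permutation p = 6e-05). Over the 5 other control hearts r was then -0.198, so the control r rests on heart 4. In failing heart 3 Rpl3l was lowest and Rpl3 highest of all 12 hearts.

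**Figure D2:**
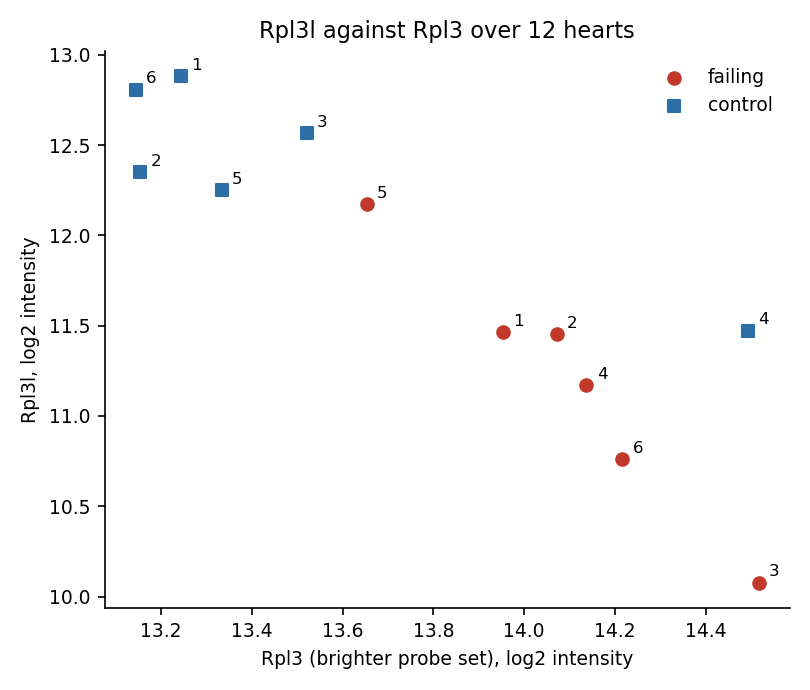
Log2 intensity of Rpl3l (vertical) against Rpl3 (horizontal), 1 point per heart, numbered by replicate within the failing and the control group. The failing hearts form a falling line between heart 5 and heart 3 (r = -0.983, n = 6), and control heart 4 lies apart from the other controls at 14.49 for Rpl3.

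Marker sums of several cell types were set beside these differences. The summed fibroblast markers ranged between 88306 and 170652 in failing hearts and between 67363 and 98281 in control hearts, and 6 of 19 brighter fibroblast probe sets were called higher in failing hearts. The summed macrophage markers ranged between 23608 and 58193 in failing hearts and between 16282 and 26868 in control hearts, with 6 of 13 brighter probe sets called higher. The cardiomyocyte sums ranged between 531632 and 777362 in failing hearts and between 495855 and 797976 in control hearts, and 0 of 27 brighter probe sets were called. The summed markers of fast skeletal muscle, with 9 measured genes, ranged between 4983 and 22253 in failing hearts, with a median of 11227, and between 8424 and 30260 in control hearts, with a median of 25847. As for Rpl3l, failing heart 5 had the highest of these sums among the failing hearts and control heart 4, at 8424, the lowest among the controls, the other controls lying at 23961 or above. Other failing hearts differed in order. Heart 6 had the lowest sum (4983), and heart 1 (7574) lay below heart 3 (8884), though heart 3 was lowest in Rpl3l. Of 7 brighter skeletal muscle probe sets 1 was called higher and 0 lower. The brightest probe set of only 3 of the 9 genes lay above the intensity limit, so few genes make up the sum. Of all 14 probe sets of this list 9 had the higher mean in failing hearts (median difference 0.21). Of the 7 brighter ones 3 did (median difference -0.89). The summed endothelial markers ranged between 16722 and 21173 in failing hearts and between 14833 and 18068 in control hearts, with 1 of 9 brighter probe sets called higher and 1 lower. No marker in these lists was at 0. Failing heart 3, with the lowest Rpl3l, had the highest fibroblast and macrophage sums and the lowest cardiomyocyte sum of the failing hearts. Failing heart 6, the next lowest in Rpl3l (10.76), had lower fibroblast and macrophage sums than failing hearts 2 and 4. Control heart 4 had the lowest cardiomyocyte sum and the highest macrophage sum (26868) of the controls. Its fibroblast sum (69668) was above only that of control heart 1 among the controls. The part of cell composition in the Rpl3 and Rpl3l differences was not tested. The RNA quality measure, the 3′ minus 5′ log2 difference of Gapdh, was 0.32 ± 0.05 in failing hearts and 0.36 ± 0.11 in control hearts (SD, n = 6 each), and with it and the like measure of beta-actin as covariate the Rpl3l difference was -1.19 with an adjusted p of 0.0485.

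The other members formed a narrow band. Leaving out Rpl3 and Rpl3l, 39 member probe sets had a mean log2 intensity of at least 11. Their differences lay between -0.16 and 0.22. Of them 33 lay above 0 and 6 below, against 1026 above and 1337 below over all 2363 probe sets at or above that intensity. For 38 of the 39 the 95% interval of the fit over all probe sets lay within 0.5 of 0 on either side. The same held for 1181 of the 2363. The exception was Rps3, a small subunit protein that also takes part in DNA repair, with an upper bound of 0.55. The spread between hearts of a group was small too, with a median residual SD of 0.118, against 0.209 over those 2363. The members lie higher within that range, with a median mean of 14.15 against 11.96. At a mean of at least 14, a level chosen after the data were seen, the median residual SD was 0.101 over 25 members and 0.214 over all 238 probe sets.

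The band leaned towards the failing side without any of these members passing the test. The median difference over all 50 members was 0.09, against -0.02 over all probe sets, and over the 45 brighter members it was 0.09, against 0.00 over the brighter probe sets. The failing mean was the higher one in 37 of 45 brighter members (82.2%), against 49.9% of the brighter probe sets. The small subunit gave 14 of 15 such members and the large subunit 23 of 30. These members vary together, with a median pairwise r of 0.476 over the 39 probe sets and 12 hearts that share the arrays and their scaling, so their signs are not independent. In each heart, the median of the members' deviations from their own 12-heart means was between -0.04 and 0.12 in failing hearts and between -0.15 and 0.11 in control hearts. Control heart 4 was again the highest of its group, and without it the median difference over the members was 0.12 and 36 of the 45 brighter members lay above 0. A further 33 probe sets carried a ribosomal protein symbol together with other symbols, mostly of near-identical copies, and were outside the rule. Of these 0 were called, 28 lay above 0, and their median was 0.08 with a range from -0.11 to 0.20.

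**Figure D3:**
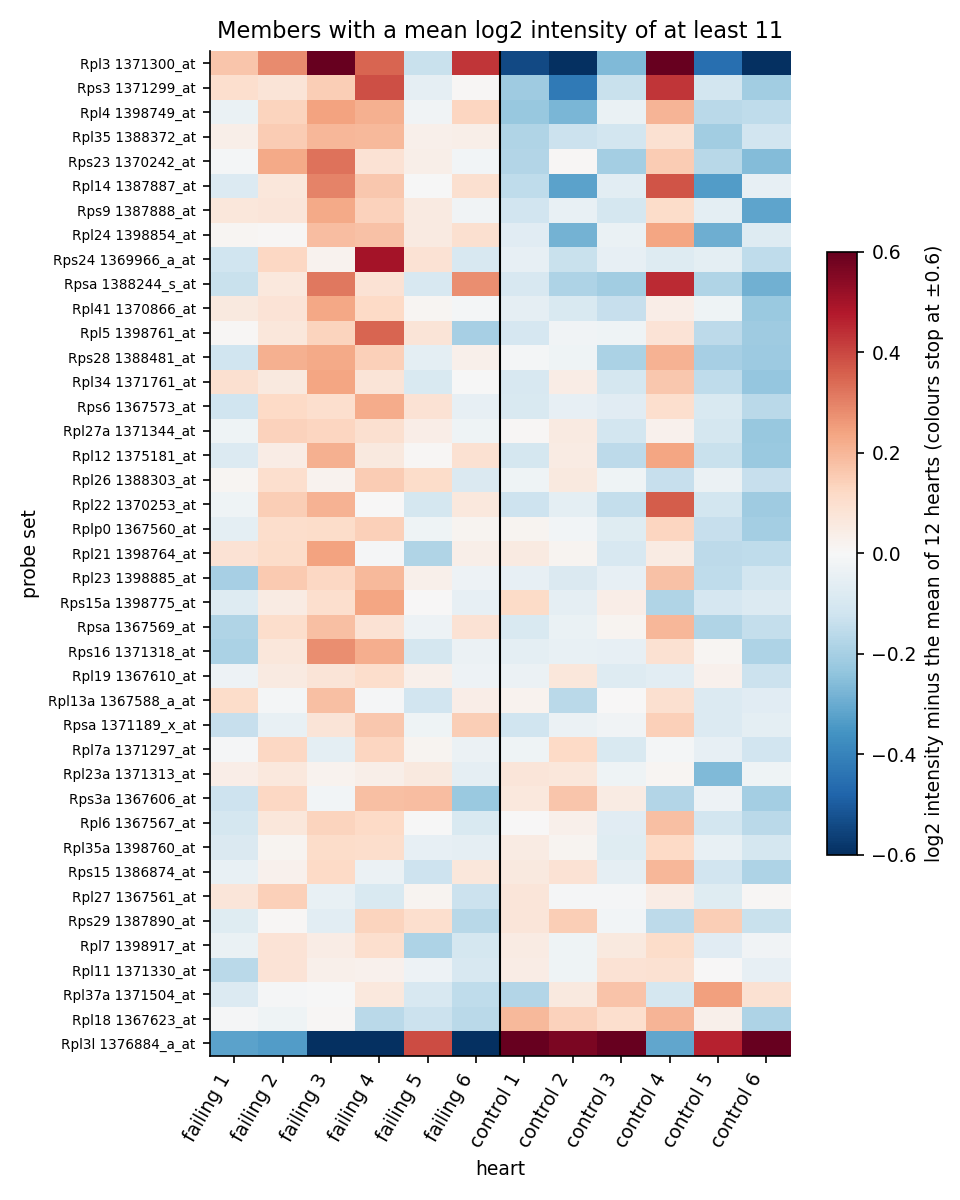
Log2 intensity of the 41 member probe sets with a mean of at least 11, each minus its own mean over 12 hearts, with failing hearts left of control hearts and probe sets ordered by the difference between groups. Colours stop at 0.6 on either side. Rpl3 at the top and Rpl3l at the bottom vary far more between hearts than the probe sets between them, and control heart 4 resembles the failing hearts in many of them.

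Among the large subunit proteins after Rpl3, the smallest p belonged to Rpl35, which sits near the exit of the peptide tunnel. Its log2 intensity ranged between 14.10 and 14.27 in failing hearts, with a median of 14.16, and between 13.86 and 14.16 in control hearts, with a median of 13.95. The difference was 0.22 ± 0.09 (SE), with an adjusted p of 0.157 among the brighter probe sets by limma. All 6 failing hearts lay above the control median, and only control heart 4 reached into their range. Without it the difference was 0.26 (adjusted p = 0.0624). Rpl4, whose loop lines the same tunnel, ranged between 13.83 and 14.11 in failing hearts and between 13.59 and 14.07 in control hearts, a difference of 0.22 ± 0.11 (SE) with an adjusted p of 0.216. Rpl41, the smallest ribosomal protein, had a difference of 0.16 and Rpl24 one of 0.18, and for both all 6 failing hearts lay above the control median. Rpl18 went the other way at -0.16 (adjusted p = 0.316), with all 6 failing hearts below the control median. Rplp0, the base of the ribosomal stalk and often used as a reference gene, had a median of 14.43 in failing hearts and 14.33 in control hearts, and its difference was 0.10 with a 95% interval of -0.10 to 0.29.

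Of the small subunit proteins, Rps23, which lies at the decoding centre, ranged between 14.06 and 14.41 in failing hearts and between 13.82 and 14.23 in control hearts, with a difference of 0.22 ± 0.11 (SE) and an adjusted p of 0.221. Rps9 had a difference of 0.18 (adjusted p = 0.262), and for both all 6 failing hearts lay above the control median. Rps3 had a median of 14.05 in failing hearts and 13.78 in control hearts, and its highest value of all 12 hearts, 14.38, was that of control heart 4. Its difference was 0.22 (adjusted p = 0.326), and 0.33 without that heart (adjusted p = 0.0564). Rpsa, also known as the laminin receptor, had 3 probe sets with differences of 0.17, 0.08 and 0.06, none of which passed. Without control heart 4 they were 0.28, 0.13 and 0.09, and none passed (lowest adjusted p = 0.0979). Rps27l, a paralogue of Rps27 that p53 induces in human cells, had a median of 8.57 in failing hearts and 8.61 in control hearts, and its difference was 0.08 with a 95% interval of -0.26 to 0.41. Its parent Rps27 is listed only on a probe set that carries other symbols too, so the pair was not compared.

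The members with the highest mean intensity, Rps29, Rpl26 and Rpl7a, had differences of -0.02, 0.10 and 0.06, each with a 95% interval that includes 0. At the dim end the values say little. The dimmer Rpl14 probe set and the only probe sets of the rule for Rps13 and Rpl28 had means over all hearts below the limit of the brighter probe sets. Bright probe sets that list Rps13 or Rpl28 beside other symbols exist and are among the 33 outside the rule. For the 3 dim members the differences were 0.46, 0.11 and -0.42, in the order Rpl14, Rps13 and Rpl28, with standard errors of 0.68, 0.65 and 0.27. The brighter Rpl14 probe set, with a mean of 13.23, had a difference of 0.18 ± 0.13 (SE). Rpl39 passed the limit with a difference of -0.51, but its 95% interval ran from -1.43 to 0.41.

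**Figure D4:**
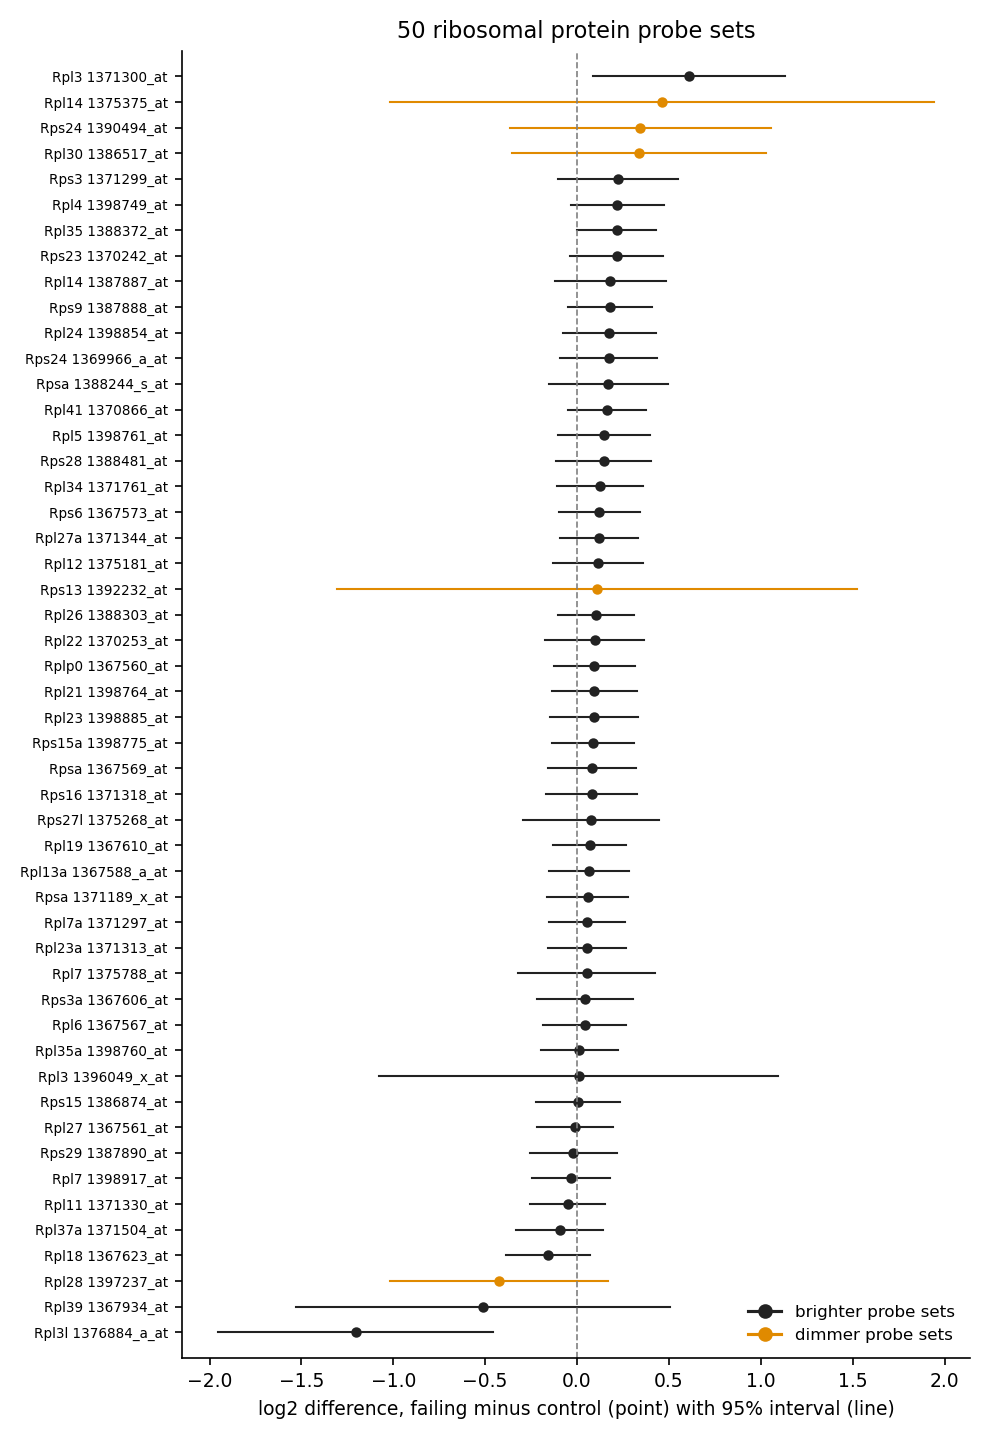
Log2 difference, failing minus control, of each of the 50 member probe sets (point) with its 95% interval from the fit over all probe sets (line). Black marks the 45 brighter and orange the 5 dimmer probe sets. Rpl3 (0.61) and Rpl3l (-1.21) lie at the ends, and the black points between them, apart from Rpl39 and the dimmer Rpl3 probe set, have short intervals near 0.

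Beyond Rpl3 itself, the members most opposed to Rpl3l over the 12 hearts were Rpl41 (r = -0.848), Rpl4 (r = -0.842) and Rpl35 (r = -0.832). Over the 42 brighter members other than this pair, r with Rpl3l ran from -0.848 to 0.435 with a median of -0.543. These are descriptions over the same 12 arrays, and they include the difference between the groups.

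Genes that build or serve the ribosome were mostly not called either. Of the 39 measured ribosome biogenesis genes, with 50 brighter probe sets, 0 probe sets rose and 2 fell in failing hearts. Rrp9, a protein of the U3 snoRNA complex that processes the precursor of 18S rRNA, had a median of 8.63 in failing hearts and 8.99 in control hearts and fell by 0.43 on the log2 scale (adjusted p = 0.0406). Heatr1, which is needed for transcription of ribosomal DNA, had a median of 7.28 in failing hearts and 7.76 in control hearts and fell by 0.65 (adjusted p = 0.0413). The groups did not overlap for either gene. Each call was lost when any 1 of 10 of the 12 hearts was left out and with the intensity limit at the 25th percentile (adjusted p = 0.0945 for Rrp9 and 0.0995 for Heatr1). That of Rrp9 was also lost with centring (adjusted p = 0.0569). With 1 probe set per gene Heatr1 lay below the intensity limit, so its call was not retested there. Its adjusted p in the limma fit over all genes was then 0.0934, where no gene passed (lowest 0.0671). Without control heart 4 Heatr1 fell by 0.52 (adjusted p = 0.0193). The median over the brighter probe sets of this list was 0.01.

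Among 14 genes of translation elongation, with 19 brighter probe sets, 2 probe sets rose and 0 fell. Eef1a1, the factor that brings aminoacyl-tRNA to the ribosome, had by 1 of its probe sets a median of 14.85 in failing hearts and 14.35 in control hearts, with a difference of 0.46 (adjusted p = 0.0321) and no overlap of the groups. Eif5a2, a minor form of the factor that relieves ribosome stalling, had a difference of 0.79 (adjusted p = 0.0427). Each of these calls was lost when any 1 of 9 of the 12 hearts was left out, with quantile normalization (adjusted p = 0.0529 for Eef1a1 and 0.0506 for Eif5a2) and with the limit at the 25th percentile (adjusted p = 0.0799 for Eef1a1 and 0.104 for Eif5a2). That of Eif5a2 was also lost with centring (adjusted p = 0.0508). With 1 probe set per gene Eif5a2 too lay below the intensity limit, and its call was not retested there. Its adjusted p in the limma fit over all genes was then 0.0949. Eef1a2, the form of adult muscle and neurons, was chosen after its values were seen, as the partner of Eef1a1. Its brighter probe set had a median of 13.04 in failing hearts and 13.72 in control hearts, and its difference of -0.49 did not pass (adjusted p = 0.104).

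The 35 genes of translation initiation gave 0 calls over 52 brighter probe sets. The smallest p there was that of Eif4ebp1, the mTOR-regulated repressor of the cap-binding factor, with a difference of 0.58 (adjusted p = 0.0585). It passed without failing heart 5 (adjusted p = 0.0234), without control heart 4 (adjusted p = 0.0367) and in 4 other settings (adjusted p from 0.024 to 0.0387). Genes of mTOR and Myc control gave 0 calls over 21 brighter probe sets, with the smallest p for Ddit4, a stress-induced inhibitor of mTOR, at a difference of 0.76 (adjusted p = 0.077). It passed without control heart 4 (adjusted p = 0.0333), with array weights (adjusted p = 0.0281) and with the limit at the 75th percentile (adjusted p = 0.0477). Among 12 other genes with TOP messages, 1 of 18 brighter probe sets was called higher, that of Eef1a1 named above, and 16 lay above 0, with a median of 0.07. Rack1, a scaffold protein bound to the small subunit, had a difference of 0.07, and the 2 probe sets of Rpl7l1, a relative of Rpl7, had differences of -0.15 and -0.01. None of these passed.

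**Figure D5:**
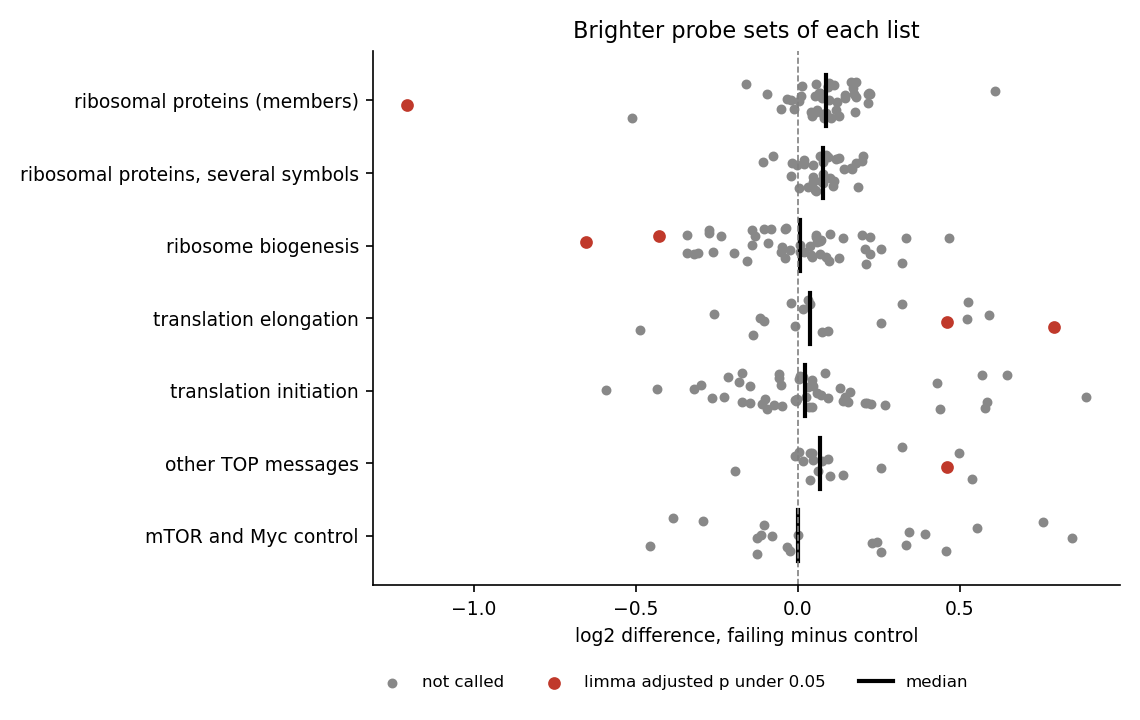
Log2 difference, failing minus control, of the brighter probe sets in the ribosomal protein set and in the related lists, with 1 point per probe set. Red points passed an adjusted p of 0.05 and black bars are medians. The ribosomal protein points lie in a narrower band than those of the other lists except for Rpl3l (-1.21), Rpl39 (-0.51) and Rpl3 (0.61).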

How the data were processed

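Total RNA of heart tissue was extracted with Trizol and RNeasy columns and 6 µg gave biotin-labelled cRNA, per the labels' protocols. The samples were taken as heart tissue, as 1 field states, although another mentions a cell line. The authors deposited 1 table of linear intensity values for 12 arrays and 0 other columns. The submitters' processing notes name RMA without a version. RMA usually gives log2 values, so which summary method made these values is unknown. The table has no detection or saturation calls and no batch or date. Precision is limited by the number of arrays.

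The intensities were put on the log2 scale with no offset. The 57 control probe sets were dropped. Probe sets were named from the platform annotation, which can be old: 20826 had 1 symbol, 436 several and 9780 none. Failing minus control was fitted with limma 3.58.1 in R 4.3.3 (lmFit, eBayes), two-sided, with Benjamini-Hochberg adjustment over all 31042 probe sets and over the 15521 brighter ones, whose SE, intervals and adjusted p are those printed for brighter probe sets. Of these steps only the limma fit was tested on simulated data. Sequences are from the RefSeq table of GRCr8, and the array's own coordinates are not used here. Whether probes of Rpl3 and Rpl3l, or of processed copies of ribosomal protein genes, cross-hybridise was not tested.

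The members, lists and tests were chosen with earlier results of these data known. Named genes are the Rpl3 pair, Rplp0, Rpsa, Rpl39, Rps27l and called members. Also named are the 10 members with the smallest p, the 3 with the highest and the 3 with the lowest mean. Each list gave up to 2 calls each way or the smallest p. Outside this rule, Rps3, Rpl14's brighter probe set, Eef1a2, Rack1 and Rpl7l1 were named after their values were seen. Rpl22, Rpl23 and Rpl23a are named only among the results flagged below. Alternatives covered normalization, offset, variance model, array weights, filters, RNA quality, the replicate number and leaving out each heart. The permutation tests of the correlations used scipy 1.17.1, and figures matplotlib 3.10.9. The exact and sign-flip tests of the Rpl3l minus Rpl3 difference were made in R 4.3.3.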

Additional observations from a re-analysis of the deposited data

Results flagged for a closer look

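A heart was marked where its gap to the nearest other heart of its group, over the group's range, exceeded the 95% critical value of Dixon's test. This held 14 times in 124 groups tested, and chance marks about 1 in 20.

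Control heart 4 accounted for 11 of the 14. It was the highest control for Rpl3 (14.49), Rps3 (14.38), Rpl23 (14.34), Rpl35 (14.16), Rpl22 (14.02), 2 probe sets of Rpsa (13.58 and 11.85) and Heatr1 (8.50). It was the lowest control for Rpl3l minus Rpl3 (-3.02) and for the cardiomyocyte marker sum (495855), and its lymphocyte marker sum was 18234.8. No cause of these values was tested.

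The other 3 lay in other hearts. Rpl23a was low in failing heart 6 (14.09) and low in control heart 5 (13.88). Rps13, a dim probe set, was low in control heart 3 (2.26).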

How the results depend on the processing

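The fit over all probe sets called 0 members under each alternative tried, also where an offset of 32 or a variance prior with a trend gave 46 and 548 calls among all probe sets. The median over the members stayed above 0, between 0.07 and 0.13. Among the brighter probe sets the 1 member called became 0 with arrays centred on their medians, with the limit at the 25th percentile and with the replicate block, 3 (Rpl3, Rpl35 and Rpl3l) with array weights, and 0 to 2 without 1 heart. The adjusted p of Rpl3l was 0.0574 with centring, 0.113 at the 25th percentile, 0.0756 with the block and 0.011 with array weights, and the cause was not tested. With the block the calls of Rrp9 (adjusted p = 0.101), Heatr1 (0.0566), Eef1a1 (0.0557) and Eif5a2 (0.0625) were lost too. All brighter calls, 659 in the reported fit, numbered 24 to 2078 without 1 heart (2078 without control heart 4), 2270 with array weights, 1014 with the trend, 281 with the block and 0 at the 25th percentile. Eif4ebp1 passed with the trend (adjusted p = 0.0387), array weights (0.024), 1 probe set per gene (0.0365) and the 75th percentile limit (0.0325). The Rpl3l minus Rpl3 difference was -1.86 after quantile normalization (exact p = 0.0216), -1.80 with the offset (exact p = 0.0173) and -1.51 over all probe sets of the genes (exact p = 0.0303). With the replicate block it was -1.81, with an exact sign-flip p of 0.0625, where 0.03125 is the smallest possible. The labels do not say whether same-numbered hearts belong together. Their deviations correlated above 0.1 in 1 of 6 pairs, and 2 of 6 hearts correlated best with their own number. With no batch or date given, these correlations cannot decide whether the hearts were paired. No result changed sign past the threshold. With 6 arrays a group and log2 values that spread at the dim end, differences of the 5 dimmer members were not detectable below their wide intervals.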
